A study of Sus scrofa with 26 samples.

Results

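The cytosolic ribosomal proteins were examined in subcutaneous adipose tissue (SCAT), with RNA of 26 pigs, each hybridised to its own one-colour microarray of 60-base probes. A probe was taken as a member when its gene symbol in the file, or the gene named by its accessions or its description, was RPSA, began with RPLP, or began with RPL or RPS and a digit. The kinases whose names begin with RPS6K were dropped. Also left out were 16 matches by description to an invertebrate, plant or microbe only, and 3 probes that named another gene too. The rule gave 367 of the 60305 probes that were not controls, for 97 of the 11588 genes and loci named on the array. Of these probes, 195 were named through an accession, 123 through the symbol column and 39 through the description column, and 10 more had a description that pointed to a locus of their own. The large subunit had 188 probes for 42 genes and the small subunit 145 probes for 30 genes. The rest were 17 probes for 8 paralogs, 8 probes under pseudogene names, 8 for loci without a ribosomal protein symbol and 1 for RPS19BP1, a protein that binds RPS19 and is no ribosomal subunit.

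The pigs were castrated males of the Creole breed, of Large White (LW) and of their cross (F1). At thermoneutrality (TN, 24 °C) there were 3 Creole, 4 F1 and 4 LW pigs. Under heat stress (HS, 30 °C in the sample labels, 32 °C for 5 days in the text of the series) there were 5 pigs of each breed, and the tissue was dorsal fat taken at the last rib. The TN pigs were slaughtered before the room was warmed, so that temperature, day of slaughter and age cannot be told apart. Each array came from a separate animal. By the paper, the pigs came in blocks of 4 littermates, with 3 blocks for each breed, and the labels do not give the litters. The tests had no term for litter and treated littermates as independent, also when breeds were compared.

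The cytosolic ribosome joins a small subunit, which holds the messenger RNA and reads its codons, to a large subunit, which forms the peptide bond. Ribosomal proteins are among the most abundant messages of a cell, and cells tend to make them in matched amounts under the control of MTOR and MYC. Several are used as reference genes in quantitative PCR of adipose tissue, and their families carry many processed pseudogenes and near copies, which a probe can also bind.

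After the filter on dim probes, 344 member probes for 93 genes were tested, and 340 of them were well above background on all 26 arrays. The other 23 probes were above background on 6 arrays or fewer. They left RPL10L, RPL13, RPS26P11 and LOC100738324 with no tested probe, and RPL39 had none either. Member spots were bright, with a median log2 signal of 15.8 where all tested probes had 8.12. This is a property of the spots and gives no order of abundance between genes. The spread between arrays of the same group was small, with a median within-group SD of 0.118 on the log2 scale for members and 0.184 for all tested probes. Only 27 members (7.85%) had an SD above 0.25, whereas 26.6% of all tested probes did.

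Probes of this family are not independent of each other. Among them, 208 pairs of the same gene, from 37 genes, shared a stretch of at least 20 bases on the same strand. With pairs of different genes counted too, 191 probes belonged to such a pair. In 6 pairs both probes were identical, for RPL11, RPL22, RPL27, RPL29, RPL35 and for RPS10 with RPS10P5. The difference between identical probes varied across arrays with an SD of 0.048 to 0.076. In 3 pairs a probe passed the threshold that its twin missed, namely for RPL11 and RPL22 with temperature and for RPL27 with breed. Only 4 pairs of different genes shared such a stretch on the same strand. In addition, the probes of RPS2 and of RPS2P32 contained reverse complements of each other, shown in capitals below, so that these 2 probes cannot read the same strand.
RPS2 probe O3817: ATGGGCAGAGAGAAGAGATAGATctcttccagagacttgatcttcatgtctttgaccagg
RPS2P32 probe O2000: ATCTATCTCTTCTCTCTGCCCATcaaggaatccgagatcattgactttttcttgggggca

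The first question was which ribosomal protein probes differed between the parent breeds. LW minus Creole, estimated with temperature as a fixed effect, was positive for 290 of the 344 member probes. The median difference was 0.10 on the log2 scale, against 0.0025 for all 44703 tested probes. At an adjusted p below 0.05 (limma, Benjamini-Hochberg over all tested probes), 65 member probes were higher in LW and 3 were lower. The background was 6.89% of all tested probes higher and 7.43% lower, and the members stood at 18.9% and 0.872%. Probes of both subunits moved, with 30 of 180 higher and 3 lower for the large subunit and 30 of 133 higher and none lower for the small subunit. An unadjusted p below 0.05 was reached by 77 large and 69 small subunit probes, and by 12983 of all 44703 tested probes. With 1 probe for each gene, the brightest, 23 of 93 genes were higher in LW and 1 was lower, where 6.66% and 8.6% of all named genes were.

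**Figure D1:**
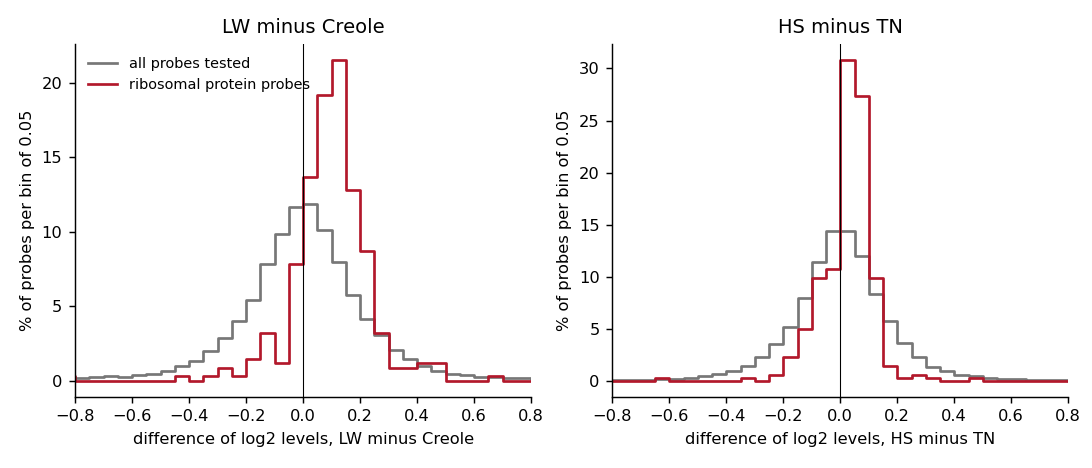
Share of probes in each bin of 0.05 (y axis, %) by difference of log2 levels (x axis), for LW minus Creole on the left and HS minus TN on the right. The member probes (red) are centred at 0.10 for breed and at 0.036 for temperature, and are narrower than all tested probes (grey), which are centred near 0. Values beyond 0.8 are not drawn.

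How many of these calls were made depended on how the arrays were scaled. The values above come from quantile normalization, as in the study. With the processed signal scaled to the 75th percentile of each array, 22 member probes (6.4%) were higher in LW and 4 (1.16%) lower, with a member median of 0.069, where 6.66% of all tested probes were higher and 8.51% lower. When each array was centred on its median instead, 14 (4.07%) were higher and 7 (2.03%) lower, with a median of 0.0099, where 4.42% of all tested probes were higher and 11.1% lower and their median was -0.023. The share of members higher in LW was thus above the background under quantile normalization and near it, slightly below, under both other scalings. Across the scalings, 14 probes for 9 genes and loci were higher in LW under all 3 scalings. They included 4 probes of RPS3, 3 of RPL14, and 1 each of RPS21, RPS6, RPL11, RPL22L1, LOC100524282 and LOC100525845. The RPL11 probe, A_72_P374678, was dim, with log2 levels of 6.14 to 7.03. Under quantile normalization 3 of 6 RPL11 probes were called higher, but not the brightest (0.10, adjusted p = 0.059). Both probes lower under all 3 scalings belonged to RPL23.

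**Figure D2:**
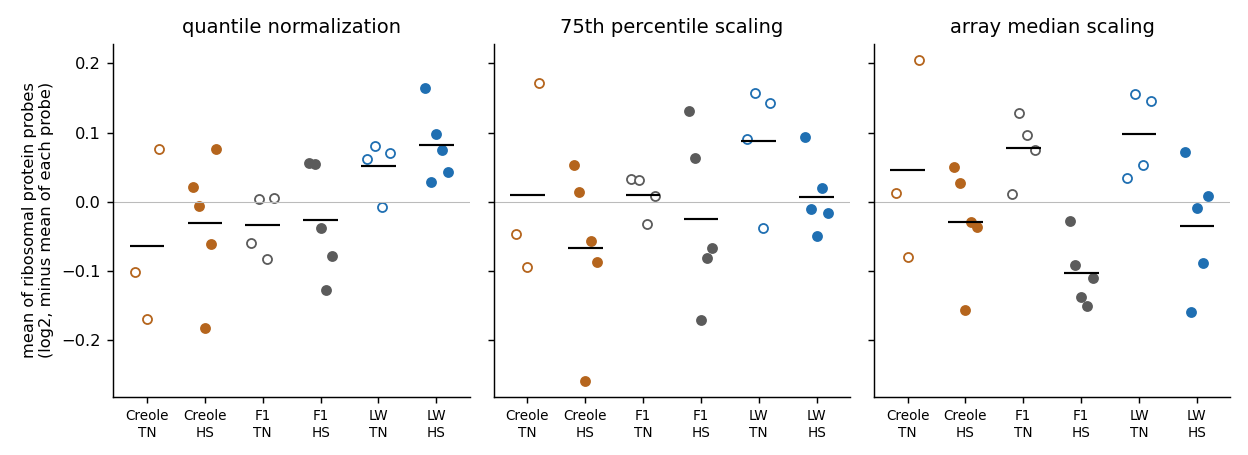
Mean over the 344 member probes of the log2 level after subtracting the average of the probe (y axis), 1 point for each array, by group (x axis; open circles TN, filled circles HS, bars the group means), under quantile normalization, 75th percentile scaling and array median scaling. The means of the LW groups are highest under quantile normalization, with arrays that overlap those of the other breeds, and the mean of each HS group sits below that of its TN group under array median scaling.

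Under quantile normalization, the mean over member probes was -0.065 ± 0.13 (SD, n = 3) in Creole TN and -0.031 ± 0.098 (SD, n = 5) in Creole HS. It was 0.051 ± 0.040 (SD, n = 4) in LW TN and 0.082 ± 0.054 (SD, n = 5) in LW HS. The Creole arrays were the most spread, from -0.18 to 0.076, and overlapped the LW arrays, which ran from -0.0081 to 0.16. Breeds and temperatures were unevenly spread over the slides. Within the 4 slides that held both breeds, the median difference over member probes was 0.15, 0.23, 0.11 and -0.055. The values within slides, here and for single probes, are plain differences of means of few arrays, so that they mix breed with temperature, and on slide 5, the last, both LW arrays were TN and the only Creole array was HS. With the slide as a fixed block beside breed and temperature, the median was 0.11 and 82 member probes were higher and 3 lower. Leaving out the third Creole HS array, the lowest of its group, brought the number of calls from 68 down to 37, and leaving out the fifth raised it to 100.

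Fibroblast markers moved with the same contrast. Of 6 such genes, COL1A1, COL1A2 and DCN were higher in LW, and the level of the list on an array (the mean over its genes of the deviation from the average of each gene, log2) ran from -0.86 to 0.23 in Creole and from -0.14 to 0.65 in LW. Adipocyte markers ran from 0.0057 to 0.44 in Creole and from -0.23 to 0.042 in LW, and 1 of 7 passed the test, LEP, which was lower. KDR of the 5 endothelial genes and CD79B of the 4 tested B cell genes were higher in LW, with ranges of -0.43 to 0.14 in Creole and 0.034 to 0.15 in LW for endothelium, and of -0.26 to 0.36 and -0.19 to 0.42 for B cells. All 7 adipocyte genes were well above background, on all 26 arrays. In whole tissue, fewer cells of a type and less RNA per cell cannot be told apart, and the part of these cells in the result was not tested.

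The largest difference between the breeds among the member probes was that of LOC100524282. This locus, which the pig RefSeq table for Sscrofa11.1 lists as a protein-coding gene and which the file describes as resembling the large subunit gene RPL37A, is read by probe A_72_P706695. A stretch of 30 bases of this probe is given to identify it.
LOC100524282 probe A_72_P706695, bases 1 to 30: ggaccagtagaagcactaccaatggaaact
The 3 Creole TN arrays had log2 levels of 7.31, 7.85 and 13.28. The 5 Creole HS arrays had 12.85, 12.88, 7.82, 7.94 and 12.97. In F1 the 9 arrays had a lowest level of 12.55, a median of 13.00 and a highest of 13.61. The Creole pigs thus fell into 4 arrays below 8 and 4 near 13, at both temperatures, and no F1 or LW array was in the lower set. Slides 2 and 4 held Creole arrays of both kinds. The LW arrays ran from 12.76 to 14.43 with a median of 14.30, and 8 of the 9 were above every Creole array. LW minus Creole was 3.76 ± 0.74 (SE), with an adjusted p of 0.0020, and the call was kept in all 38 alternatives tried.

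**Figure D3:**
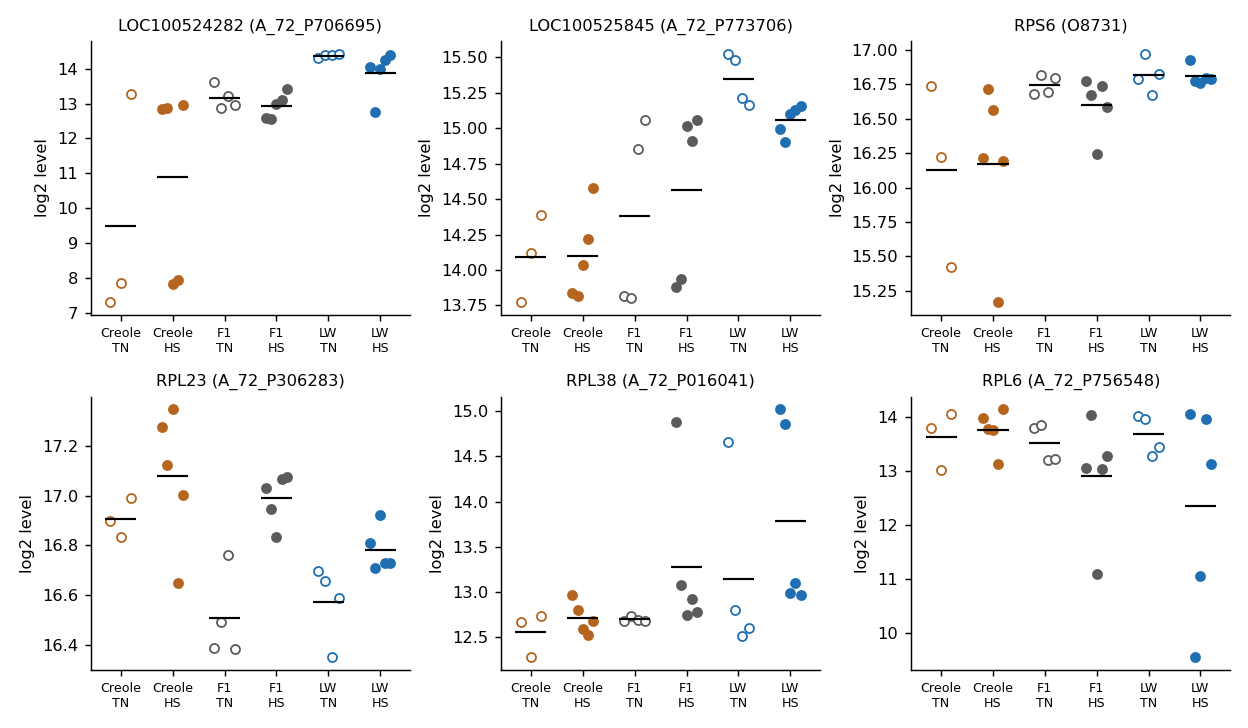
Log2 level (y axis) of 6 member probes on each array, by group (x axis; open circles TN, filled circles HS, bars the group means). The Creole arrays of LOC100524282 split between 7.31 to 7.94 and 12.8 to 13.3, and single arrays of RPL38 and RPL6 stand apart from the other members of their groups.

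LOC100525845 showed a different arrangement. The RefSeq table lists it as a pseudogene, the file describes it as resembling RPL32, and its probe shares 22 bases, in capitals, with a probe of RPL32.
LOC100525845 probe A_72_P773706, bases 4 to 33: agttGAAATGAATAGTGGGCTCGTGTacac
RPL32 probe A_72_P441743, bases 1 to 30: GAAATGAATAGTGGGCTCGTGTgcacattg
The 8 Creole arrays ran from 13.77 to 14.58, with a median of 14.08. The 9 LW arrays ran from 14.90 to 15.53, with a median of 15.15, so that these breeds did not overlap. The F1 arrays were on both sides. At TN they had 13.82, 13.80, 14.86 and 15.06, and at HS they had 13.88, 13.94, 15.01, 14.91 and 15.06, which puts 4 arrays in the Creole range and 5 at or near the LW range. Those 4 were the F1 arrays of slides 1 and 2, and the other 5 were on slides 3 to 5. The slides moved with this probe in the parent breeds too. The Creole arrays of slides 1 and 2 had 13.77, 13.82 and 13.84 and the other 5 had 14.04 or more, and both LW arrays of slide 2, at 14.90 and 15.00, were the lowest of LW. Within the 4 slides that held both parent breeds, LW minus Creole was 1.15, 1.13, 1.1 and 0.61, the last from LW TN against Creole HS, and it was 0.97 with the slide as a fixed block. The part of the slide in the F1 split was not tested. LW minus Creole was 1.09 ± 0.19 (SE), with an adjusted p of 0.00077, and was called in all 38 alternatives. The RPL32 probe that shares these 22 bases differed between the breeds by -0.047 (adjusted p = 0.49). Of the 5 other tested loci without a symbol, none passed the test, and LOC729032 had the smallest p among them, at 0.24 ± 0.084 (SE, adjusted p = 0.061).

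RPS6, the small subunit protein that S6 kinase phosphorylates when MTOR is active, was read by 2 probes with unlike results. They share no stretch of 20 bases.
RPS6 probe O8731: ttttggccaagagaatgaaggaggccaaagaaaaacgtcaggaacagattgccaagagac
RPS6 probe A_72_P131691: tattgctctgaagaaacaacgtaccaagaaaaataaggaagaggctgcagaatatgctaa
For O8731 the Creole TN arrays had 16.74, 16.22 and 15.42, and the Creole HS arrays had 16.22, 16.71, 16.57, 15.17 and 16.20. The LW arrays ran from 16.67 to 16.97 with a median of 16.79. Of the 8 Creole arrays, 6 were below every LW array, and 2 were as high as the lowest LW arrays. LW minus Creole was 0.65 ± 0.16 (SE, adjusted p = 0.0082) for O8731, and 0.072 ± 0.050 (SE, adjusted p = 0.36) for A_72_P131691.

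RPS3, a small subunit protein at the entry of the messenger RNA channel, was higher in LW by all 5 of its probes, from 0.19 to 0.44. The largest difference came from A_72_P149686, which was named from its description and overlaps A_72_P041136 with only 17 identical bases in a row, in capitals.
RPS3 probe A_72_P149686: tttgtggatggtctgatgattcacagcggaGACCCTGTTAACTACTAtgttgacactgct
RPS3 probe A_72_P041136: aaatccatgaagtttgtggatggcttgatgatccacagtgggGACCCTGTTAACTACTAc
A_72_P149686 ran from 13.13 to 13.56 in Creole (median 13.27), from 13.30 to 13.61 in F1 (median 13.46) and from 13.62 to 13.93 in LW (median 13.73). The LW arrays did not overlap those of Creole or F1. The difference was 0.44 ± 0.062 (SE), with an adjusted p of 0.00013, the smallest of all member probes. A_72_P041136 gave 0.19 ± 0.063 (SE, adjusted p = 0.038), with Creole arrays from 15.56 to 15.80 and LW arrays from 15.65 to 16.05, which overlapped. The brightest RPS3 probe, A_72_P763607, gave 0.25 ± 0.052 (SE, adjusted p = 0.0029).

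RPL14 and RPS21 also had several probes that were higher in LW. For RPL14, a large subunit protein, 5 of 7 probes were higher in LW, by 0.37 to 0.49, and the remaining 2 gave 0.25 and 0.14 without passing the test.
RPL14 probe A_72_P563904: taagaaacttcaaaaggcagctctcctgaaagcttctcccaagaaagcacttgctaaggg
The RPL14 probe with the largest difference, A_72_P441723, ran from 13.61 to 14.19 in Creole and from 14.20 to 14.58 in LW, with medians of 14.05 and 14.51. The breeds came close without overlapping, and the difference was 0.49 ± 0.095 (SE, adjusted p = 0.0018). For RPS21, 4 of 5 probes were higher in LW, by 0.18 to 0.28. Its probe A_72_P146446 ran from 15.69 to 15.96 in Creole, from 15.70 to 16.05 in F1 and from 15.99 to 16.23 in LW, and gave 0.28 ± 0.044 (SE, adjusted p = 0.00032). In RPS24, 5 of 7 probes were higher in LW, by 0.14 to 0.23, and the lowest of the 7 gave -0.12 and was not called.

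**Figure D4:**
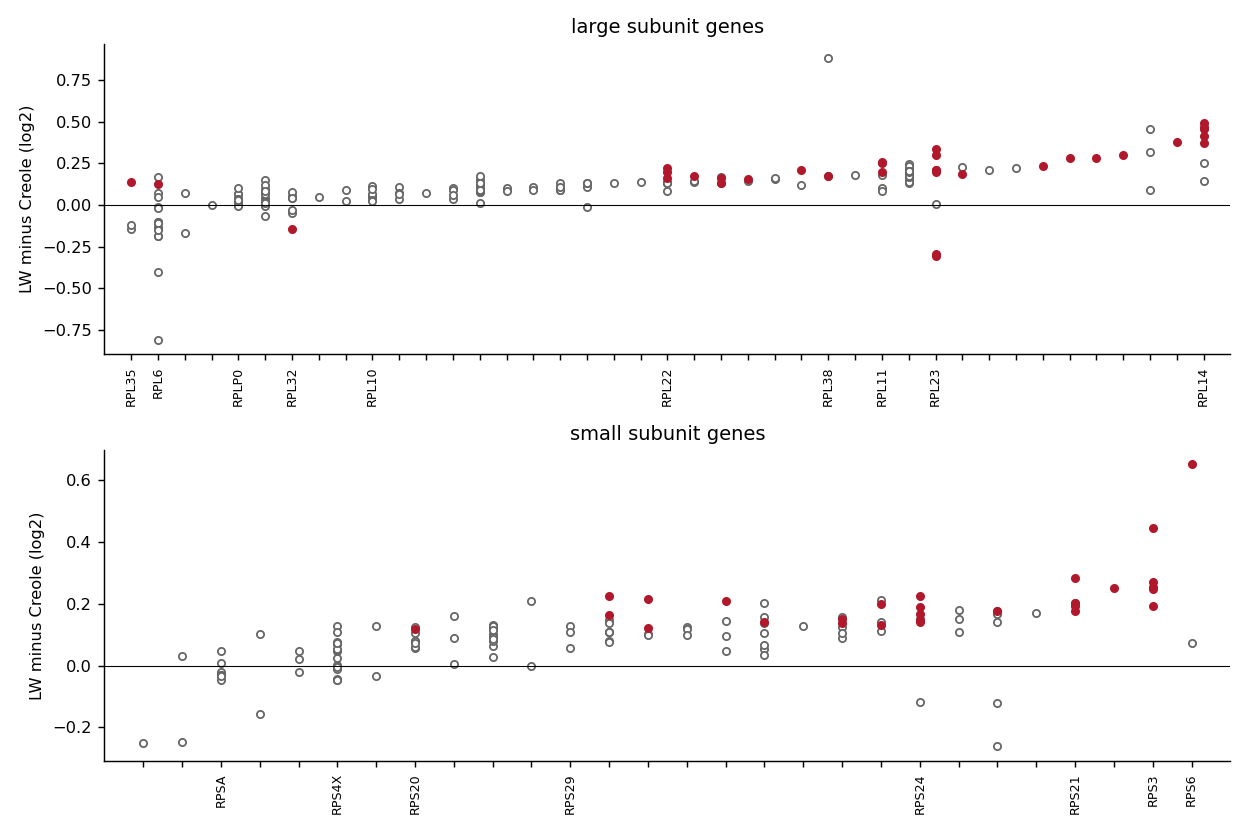
LW minus Creole difference of log2 levels (y axis) of the tested probes of large and small subunit genes (x axis, ordered by the median of their probes). Filled points had an adjusted p below 0.05, and genes described in the text are labelled. Most probes lie between 0 and 0.25, RPL14 and RPS3 lie higher with several filled points, and RPL23 has filled points on both sides of 0.

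RPL23, a large subunit protein that also binds MDM2, was the only gene with probes called in both directions. The 2 probes called lower in LW, A_72_P306283 and A_72_P514668, were named from their descriptions and share 53 of their bases, in capitals. The 5 probes called higher share no stretch of 20 bases with them, and 2 of these are given for comparison.
RPL23 probe A_72_P306283: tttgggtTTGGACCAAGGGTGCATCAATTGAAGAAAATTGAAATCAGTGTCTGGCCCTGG
RPL23 probe A_72_P514668: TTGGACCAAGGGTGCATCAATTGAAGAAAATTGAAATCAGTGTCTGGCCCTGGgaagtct
RPL23 probe A_72_P641941: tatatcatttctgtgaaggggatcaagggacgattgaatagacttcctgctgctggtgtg
RPL23 probe A_72_P658907: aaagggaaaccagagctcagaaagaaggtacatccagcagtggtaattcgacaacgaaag
A_72_P306283 ran from 16.65 to 17.35 in Creole, with a median of 17.00, and from 16.35 to 16.92 in LW, with a median of 16.71. The ranges overlapped, and the difference was -0.31 ± 0.083 (SE, adjusted p = 0.015), against -0.30 ± 0.088 (SE, adjusted p = 0.026) for A_72_P514668. For A_72_P306283 it was -0.25, -0.050, -0.30 and -0.53 within slides, the last again from LW TN against Creole HS, and -0.32 (adjusted p = 0.028) once slide was a term of the fit. The 5 other called probes gave 0.20 to 0.33, among them A_72_P445153 with 0.20 ± 0.053 (SE, adjusted p = 0.014). When all RPL23 probes were averaged the gene gave 0.081 and was not called.

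The third probe lower in LW was A_72_P726053 of RPL32, at -0.15 ± 0.047 (SE, adjusted p = 0.038), while the brightest RPL32 probe gave 0.041 (adjusted p = 0.51). Among the paralogs, which are near copies of ribosomal protein genes under their own symbols, RPL22L1 gave 0.40 ± 0.12 (SE, adjusted p = 0.023). RPL39L gave 0.43 ± 0.14 (SE, adjusted p = 0.043), a call made in 25 of 38 alternatives and lost with array medians, no filter, no temperature term and 10 removals of 1 array. For RPL36AL 1 of 3 probes gave 0.20 ± 0.058 (SE, adjusted p = 0.025), which was called in 31 of 38 alternatives and lost under both other scalings. RPL3L, a copy known from striated muscle, gave 0.17 ± 0.064 (SE, adjusted p = 0.076), and RPS27L gave -0.11 ± 0.058 (SE, adjusted p = 0.20). The parent genes RPL22, RPL36A, RPL3 and RPS27 gave 0.087, 0.16, 0.21 and 0.18 by their brightest probes, none of which passed the test. The brightest RPL22 probe was the lowest of 7, which ran to 0.22, and 3 of the 7 were called higher in LW. No probe of RPL36A, RPL3 or RPS27 was called. Neither RPL7L1, a factor of ribosome assembly, nor any of the 5 RPL26L1 probes was called. No probe under a pseudogene name passed, and 1 of 7 had an unadjusted p below 0.05.

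The second question was whether the family changed with heat. HS minus TN, with breed as a fixed effect, was positive for 244 of 344 member probes. The median was 0.036, against 0.0024 for all tested probes. At the same threshold 15 member probes (4.36%) were higher in HS and 2 (0.581%) were lower, where 5.18% of all tested probes were higher and 7.02% lower. By genes, 5 of 93 were higher and none lower, against 4.94% and 7.66% of all named genes. An unadjusted p below 0.05 was reached by 23 of the 93 and by 2815 of all 9983 named genes. The share of members higher in HS was thus near the background.

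The direction of this small change depended on the scaling. With the 75th percentile, 1 member probe was higher and 31 lower, with a median of -0.067, and 4 genes were lower and none higher. The lower probes were 9.01% of the members, near the 8.69% of all tested probes. With array medians, no member probe was higher and 137 (39.8%) were lower, where 13.9% of all tested probes were lower. The member median was then -0.13 and that of all tested probes -0.033. The median over member probes within the 5 slides was 0.10, 0.10, 0.12, -0.11 and -0.024 under quantile normalization, without adjustment for breed, and on slide 5, the last, Creole and F1 HS arrays stood against LW TN arrays alone. With the slide as a fixed block it was 0.030, with 11 probes higher and 6 lower. None of the 15 rises was called under all 3 scalings, and the 2 falls were. No direction of the family with temperature can therefore be given.

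RPS6 probe A_72_P131691 was one of these falls. The 11 TN arrays ran from 15.95 to 16.25 with a median of 16.16, and the 15 HS arrays from 15.76 to 16.13 with a median of 16.00. The groups overlapped, but all 4 LW TN arrays, at 16.21, 16.17, 16.23 and 16.23, lay above the 5 LW HS arrays, at 16.10, 15.90, 16.09, 16.02 and 16.04. HS minus TN was -0.15 ± 0.041 (SE, adjusted p = 0.017), and it was called in all 37 alternatives tried. The other RPS6 probe gave -0.041 ± 0.13 (SE, adjusted p = 0.88). The other fall was RPLP0 probe O13253, from 12.91 to 13.50 at TN and from 12.90 to 13.27 at HS, with medians of 13.27 and 13.08, at -0.19 ± 0.057 (SE, adjusted p = 0.032), a call made in 31 of 37 alternatives and lost with normexp background correction and in 5 removals of 1 array (F1 TN 2, LW HS 2, F1 HS 3, Creole TN 3 and LW TN 2). RPLP0 forms the base of the ribosomal stalk and had 14 tested probes, all with a difference below 0, from -0.19 to -0.016, of which the brightest gave -0.016.

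The 15 probes higher in HS under quantile normalization were 4 of RPS20, 4 of RPL22, 2 of RPL11, 2 of RPL23 and 1 each of RPL32, RPL8 and RPS15. RPL23 had the largest values, from the same overlapping probes that were lower in LW, with 0.29 ± 0.068 (SE, adjusted p = 0.0061) for A_72_P306283. At TN it had 16.90, 16.83 and 16.99 in Creole, 16.39, 16.49, 16.76 and 16.38 in F1, and 16.70, 16.66, 16.35 and 16.59 in LW. At HS it had 17.28, 17.12, 17.35, 16.65 and 17.00 in Creole, 17.03, 16.95, 16.83, 17.07 and 17.07 in F1, and 16.81, 16.71, 16.92, 16.73 and 16.73 in LW. In F1 and in LW every HS array was above every TN array, whereas in Creole 1 HS array was the lowest of the breed. Within slides the difference was 0.70, 0.19, 0.064, 0.27 and 0.57, again with breeds mixed and on slide 5 with LW at TN alone, and with the slide as a fixed block it was 0.29 (adjusted p = 0.012). The other RPL23 probes gave -0.074 to 0.11 and were not called.

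RPS20, a small subunit protein, was higher in HS by 4 of 8 probes, and all 8 gave values between 0.072 and 0.13.
RPS20 probe A_72_P743586: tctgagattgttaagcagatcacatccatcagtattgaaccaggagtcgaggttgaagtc
This probe ran from 17.61 to 17.79 at TN, with a median of 17.73, and from 17.67 to 18.05 at HS, with a median of 17.85. The groups overlapped in part, and in LW all HS arrays were above all TN arrays. The difference was 0.13 ± 0.032 (SE, adjusted p = 0.0080). It was -0.024 (adjusted p = 0.70) with array medians. RPL11, which with RPL5 binds MDM2 outside the ribosome, gave 0.10 ± 0.030 (SE, adjusted p = 0.028) by its brightest probe, and its identical twin gave 0.080 (adjusted p = 0.10). RPL22, an RNA-binding protein of the large subunit, was called by 4 of 7 probes, with 0.13 (adjusted p = 0.048) for the brightest, which was called in 14 of 38 alternatives and lost, among others, with normexp, the slide as a block and most removals of 1 array. RPL32 gave 0.11 (adjusted p = 0.016).

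Fibroblast and blood markers also moved with temperature. COL1A1, COL1A2, COL3A1 and DCN, 4 of 6 fibroblast genes, were higher in HS, and the level of the 6 genes ran from -0.86 to 0.35 at TN and from -0.23 to 0.65 at HS. HBB and EPB42, 2 of 5 tested red blood cell genes, were lower, and the level of that list ran from -0.028 to 0.57 at TN and from -0.49 to 0.37 at HS. Among adipocyte genes ADIPOQ was higher in HS, by 0.16 ± 0.052 (SE, adjusted p = 0.038), and among endothelial genes CDH5 was lower, by a difference of -0.23. No T cell, macrophage, skeletal muscle or keratinocyte gene passed the test in either contrast, and the part of these cells in the results was not tested.

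The F1 was compared with the midpoint of its parents, and the breeds in their response to heat. F1 minus the midpoint of its parent breeds was negative for most members, with 56 of 344 above 0 and a median of -0.044, but no member passed the test (limma, 28 with an unadjusted p below 0.05), where 0.00671% of all tested probes and 0% of all named genes did. The smallest p among the genes belonged to RPL32 at -0.089 ± 0.032 (SE, adjusted p = 0.40), RPL12 at -0.13 and RPL30 at -0.092. The interaction of breed and temperature was called for no member, with 12 at an unadjusted p below 0.05, and for 0.00224% of all tested probes, and for 0% of all named genes. Its smallest p among the genes belonged to RPS29, RPS13 and RPL6, all with an adjusted p of 0.90.

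Within Creole, no member was called (limma, 7 at an unadjusted p below 0.05), where 0.0537% of all tested probes and 0.0601% of all named genes were, and by the brightest probe of each gene the smallest p belonged to RPL17 at -0.23 ± 0.098 (SE, adjusted p = 0.38), with RPS28 among the next. Within F1, 1 member was called, where 0.421% of all probes and 0.411% of all named genes were. It was RPL23 probe A_72_P306283, at 0.49 ± 0.11 (SE, adjusted p = 0.045), followed, by the brightest probe of each gene, by RPL35A at 0.50 ± 0.15 (SE, adjusted p = 0.10) and RPS27L at -0.19. Within LW, 1 member was called, where 1.52% of all probes and 1.46% of all named genes were. It was RPS29 probe A_72_P773557, at 17.43, 17.64, 17.43 and 17.39 in the TN arrays and 17.73, 17.66, 17.76, 17.66 and 17.69 in the HS arrays. All 5 HS arrays were above all 4 TN arrays, by the least margin between 17.64 at TN and 17.66 at HS, and the change was 0.23 ± 0.056 (SE, adjusted p = 0.039). By the brightest probe of each gene, RPS3 and RPL32 followed in LW with 0.23 and 0.17 and adjusted p-values of 0.082 and 0.087. The RPL23 call within F1 was made in 15 of 37 alternatives and the RPS29 call within LW in 25 of 37. Both were lost under both other scalings and with the slide as a fixed block.

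Some probes varied between pigs of one group far more than their gene did by other probes. RPL38 probe A_72_P016041, of which 30 bases are shown, was one of them.
RPL38 probe A_72_P016041, bases 1 to 30: tggttgcctcaaaatcctgggctgtgatcc
At TN it had 12.67, 12.28 and 12.73 in Creole, 12.69, 12.74, 12.69 and 12.68 in F1, and 14.66, 12.81, 12.52 and 12.60 in LW. At HS it had 12.96, 12.80, 12.59, 12.53 and 12.68 in Creole, 14.87, 13.08, 12.75, 12.92 and 12.78 in F1, and 15.02, 14.86, 12.99, 13.10 and 12.96 in LW. Thus 4 arrays, 3 from LW and 1 from F1, were near 15 and the other 22 were at 13.10 or below. LW minus Creole was 0.88 and not called (adjusted p = 0.070). The brighter RPL38 probe O12413 ran from 15.94 to 16.38 over all arrays, without such a split, and gave 0.17 ± 0.040 (SE, adjusted p = 0.0063).

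RPL6, a large subunit protein, had 15 tested probes and had a few arrays that stood apart. The most variable was A_72_P756548, shown with 4 of the 5 probes that share a stretch of 20 bases or more with it, in capitals, and with the least variable probe, A_72_P740378.
RPL6 probe A_72_P756548: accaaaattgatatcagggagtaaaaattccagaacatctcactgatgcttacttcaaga
RPL6 probe A_72_P729538: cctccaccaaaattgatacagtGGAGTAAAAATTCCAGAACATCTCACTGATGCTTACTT
RPL6 probe A_72_P720998: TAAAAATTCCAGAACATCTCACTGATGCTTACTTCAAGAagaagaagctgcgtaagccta
RPL6 probe A_72_P730073: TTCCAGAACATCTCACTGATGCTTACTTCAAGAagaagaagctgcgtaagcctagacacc
RPL6 probe A_72_P761955: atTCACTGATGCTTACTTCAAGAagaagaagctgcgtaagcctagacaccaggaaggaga
RPL6 probe A_72_P740378: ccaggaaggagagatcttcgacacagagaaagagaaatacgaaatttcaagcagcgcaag
A_72_P756548 was low on 3 arrays, at 9.55 and 11.06 in LW HS and at 11.10 in F1 HS, and lay between 13.03 and 14.15 on the other 23. The 5 probes with 38, 33, 39, 21 and 29 shared bases had within-group SDs of 0.55, 0.35, 0.33, 0.26 and 0.21, against 1.06 for A_72_P756548. Of the 9 probes that share no such stretch, A_72_P722393, A_72_P719128 and A_72_P734143 had SDs of 0.25, 0.24 and 0.23, and the other 6 had 0.075 to 0.12. The same 3 arrays were among the 4 lowest in all 5 sharing probes and in these 3, so that the pattern was not limited to the shared bases. A_72_P740378 ran from 15.56 to 15.85. Neither contrast was called for A_72_P756548. Of the 15 probes, the one called was A_72_P740378, higher in LW by 0.13 ± 0.042 (SE, adjusted p = 0.043).

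**Figure D5:**
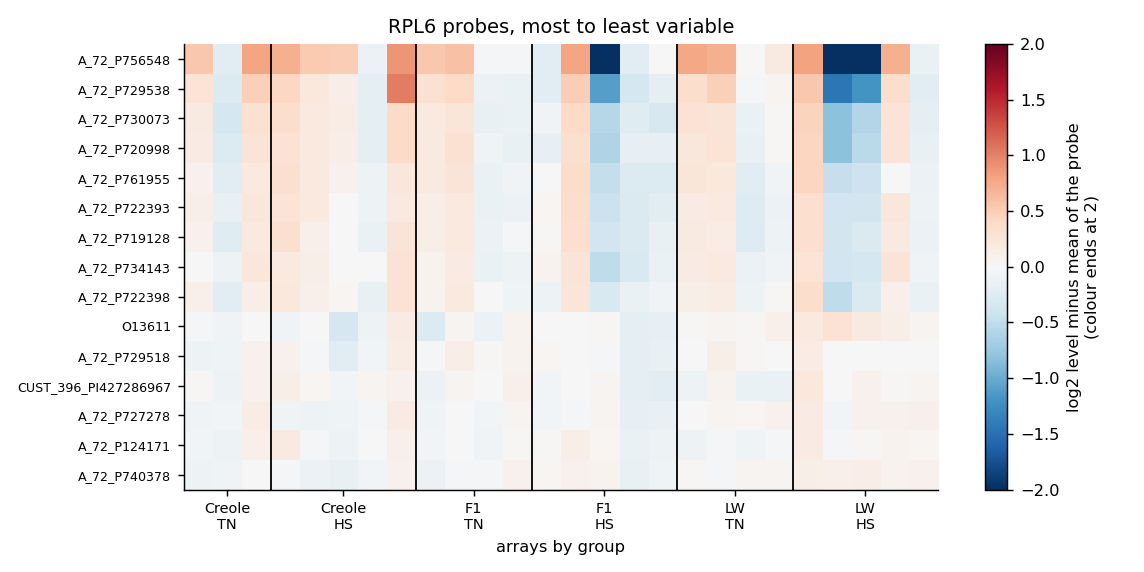
Log2 level minus the mean of each probe (colour, ending at 2 on either side) for the 15 RPL6 probes (rows, most to least variable within groups) on the 26 arrays by group (columns). The same 3 HS arrays, 1 of F1 and 2 of LW, are blue in the upper rows and near 0 in the lower rows.

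RPL35 gave a similar contrast between probes. Its 2 identical probes varied with within-group SDs of 0.63 each, between 8.28 and 10.47 for A_72_P385723, while their difference varied by an SD of only 0.076. The variation was thus measured alike on both spots. The third RPL35 probe, A_72_P440021, had an SD of 0.075 and was higher in LW by 0.14 ± 0.041 (SE, adjusted p = 0.023).

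Of the ribosomal protein genes that serve as reference genes in quantitative PCR, RPL4, RPL13A, RPL19, RPL32 and RPS18 by their brightest probes gave LW minus Creole differences of 0.041 to 0.13, none called. HS minus TN was -0.060 to 0.11, and RPL32 alone was called. Among all their probes, 2 of 6 for RPS18 were called higher in LW and 1 of 7 for RPL32 lower. RPSA and RPS4X had LW minus Creole differences of 0.0069 and -0.0034, with within-group SDs of 0.060 and 0.064. RPL10 gave 0.00027 for temperature and 0.026 for breed by its brightest probe. These were the lowest of its 7 probes, which ran to 0.057 and 0.115, none called. With array medians, however, RPL10, RPS18 and RPS4X gave -0.15, -0.13 and -0.14 for temperature and were called. RPLP1, RPLP2, RPL5, RPS19 and RPS27A were not called in either contrast.

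The factors that work with these proteins were read from lists by counts. Of 6 fusion and associated proteins (FAU, RACK1 and others) and 7 elongation factors, none was called with temperature or breed (limma), and their medians lay between -0.039 and 0.024. Of 34 tested initiation factors, 1 rose in HS, the helicase EIF4A2 by 0.20 ± 0.053 (SE, adjusted p = 0.014). EIF4E, which binds the mRNA cap, and EIF2S3, a subunit of the factor that brings the initiator tRNA, fell by 0.21 and 0.20. In LW, EIF3A was higher by 0.24 ± 0.058 (SE, adjusted p = 0.0079).

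Ribosome assembly in the nucleolus, the longest list, also had the most calls by number. Of its 37 tested genes, 3 were higher and 5 lower in HS, and 2 were higher and 3 lower in LW. NCL, the nucleolar protein nucleolin, gave -0.76 ± 0.23 (SE, adjusted p = 0.033) for temperature and 1.12 ± 0.29 (SE, adjusted p = 0.011) for breed. NOLC1, a nucleolar phosphoprotein, fell by 0.46 in HS, while NOP14, needed for the small subunit, rose by 0.56 ± 0.15 (SE, adjusted p = 0.014). POLR1D, a subunit of RNA polymerases I and III, was lower in LW, with a difference of -0.52 ± 0.082 (SE, adjusted p = 0.00038). Of 12 tested genes that control the translation of ribosomal protein messages, MYC and RHEB fell in HS by 0.48 and 0.19. PDCD4, which holds back the helicase EIF4A, was higher in LW by 0.48 ± 0.090 (SE, adjusted p = 0.0014), and RPTOR gave -0.24 ± 0.062 (SE, adjusted p = 0.011). The background for all these genes is 4.94% higher and 7.66% lower for temperature, and 6.66% and 8.6% for breed.

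Named genes that are no member were ranked by the likeness of their deviations from the group means to the mean deviation of the member probes, over 26 arrays and 9890 genes. ARHGEF18 was the most alike (Pearson r = 0.90), followed by POMC, MT-2B and CDC42EP4 (each 0.87) and EIF3D (0.85). These points share array, slide and scaling, and the values are a description. ARHGEF18 itself gave 0.083 for LW minus Creole (adjusted p = 0.68), and CDC42EP4 gave 0.30 (adjusted p = 0.046).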

How the data were processed

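RNA of 26 SCAT samples was measured on 26 one-colour arrays on 5 slides. The scanner files deposited by the authors (Feature Extraction 10.10.1.1, per the labels) hold unnormalized median and mean pixel intensity, local background intensity and a processed intensity, with flags for each spot. The log2 values that the authors deposited in the series matrix were quantile-normalized and served as an alternative. No spot was saturated, and 68.5% to 76.6% of the spots were well above background on each array. The number of arrays limits the precision.

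Median pixel intensities were quantile-normalized, non-uniform spots set to missing and 44703 probes kept that passed the background flag on 8 or more arrays, in R 4.3.3 with limma 3.58.1 (lmFit, eBayes with an intensity trend). Temperature was fitted with breed and breed with temperature, and changes within breeds and the interaction came from 6 group means. Adjustment was by Benjamini-Hochberg over all tested probes. Pen, slaughter day, father and mother, which the authors modelled, are not in the labels. Names came from the files and a RefSeq table (Sscrofa11.1), and no genome was used.

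A gene was represented by its brightest tested member probe. Named were the largest calls with temperature (8 each way) and breed (4 each way), the 3 smallest p for the other comparisons, and fixed lists of ribosomal, pathway and cell marker genes. Some named items are not reported here. Other probes were singled out after their values were seen. Members and lists were chosen with earlier results of these data known. Alternatives changed the scaling, background correction, filter, slide, weights, covariates, probe choice, member naming (added after seeing the data) or left out 1 array. The method was tested on simulated data.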

Additional observations from a re-analysis of the deposited data

Results flagged for a closer look

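For 55 member probes and the mean member level, groups of 4 or 5 arrays were searched for an array whose gap to its nearest neighbour took up most of the range of the group (Dixon's 95% value). Of 280 groups, 20 had such an array, in 15 probes, and chance gives about 1 in 20. Log2 levels are given.

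The widest gaps were in RPL38 probe A_72_P016041, where the first F1 HS array had 14.87 and its next neighbour 13.08, and where the first LW TN array had 14.66 and the next 12.81. LOC100524282 had 12.76 on the second LW HS array, the lowest of LW, and 13.99 on the next.

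The third Creole HS array stood apart in 3 probes, with 16.82 for RPL19 and 15.62 for RPL12 as the lowest and 17.59 for RPS29 as the highest of its group. The first LW HS array was the highest of its group in RPS6 probe O8731 (16.92), RPLP0 probe O13253 (13.27) and RPS28 (18.04). Other LW HS arrays stood apart in RPL11 probe A_72_P041441 (17.37, lowest), RPL36AL (15.17, highest) and RPL3L (16.28, lowest).

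Among the LW TN arrays, single values stood apart in RPL19 (17.12, lowest), RPL36AL (15.00, highest), RPL23 probe A_72_P445153 (16.78, highest) and RPS29 (17.64, highest). In F1, single arrays were the highest for RPS27A at TN (16.95), for RPS27L at TN (8.32) and at HS (8.14), and for RPS20 probe A_72_P743586 at HS (17.89). All of these arrays were kept in the values reported above.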

How the results depend on the processing

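No paired analysis was possible, because the TN and HS arrays came from different pigs and the labels do not give the litters. Leaving out 1 array at a time gave 9 (without the third LW TN array) to 30 (without the third Creole HS array) calls with temperature where 17 were made, 2 to 11 genes where 5 were, and 37 to 100 calls for LW minus Creole where 68 were made, or 15 to 33 genes where 24 were. It gave 0 to 2 calls within F1 (0 to 1 gene) and 0 to 3 within LW (0 to 1 gene), medians of -0.014 to 0.10 within Creole and -0.014 to 0.036 within F1.

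With 75th percentile scaling, temperature gave 32 calls (31 lower, median -0.067; 4 genes, all lower), LW minus Creole 26 (13 genes), the change within F1 0 (0 genes) and within LW 2, both lower (0 genes), with medians of -0.094, -0.042 and -0.061 within Creole, F1 and LW. With array medians, temperature gave 137 calls, all lower (28 genes, median -0.13), LW minus Creole 21 (7 genes, median 0.0099), the change within F1 64 lower (9 genes) and within LW 3 lower (2 genes), with medians of -0.090, -0.19 and -0.11 within Creole, F1 and LW.

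Without a breed term temperature gave 6 calls (2 genes), and without a temperature term LW minus Creole gave 41. Array weights gave 9 genes with temperature and 3 probes and 2 genes within LW, and averaging the probes of a gene gave 3 genes with temperature and 0 within F1 and LW. Normexp and the filter on all arrays each gave 2 calls within LW, no filter and the slide as a fixed block gave 0 within F1 and within LW, and members named without the description column gave 0 within F1.

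Named probes that turned were, with array medians and temperature, RPL22 A_72_P734523 (-0.071) and A_72_P423485 (-0.035), RPL32 (-0.058), RPL11 A_72_P041441 (-0.049), RPL10 (-0.15), RPS18 (-0.13), RPS4X (-0.14) and RPS20 A_72_P743586 (-0.024), A_72_P751770 (-0.028) and A_72_P243932 (-0.022). RPL11 A_72_P041441 gave -0.0041 with 75th percentile scaling, and RPL23 gave 0.081 for LW minus Creole when its probes were averaged. The cause was not tested. The F1 and interaction counts, and that within Creole, stayed at 0 in all alternatives (limma).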
